A study of Homo sapiens with 47 samples.

Results

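The regions described here were 355 places in the genome where an antibody against the HA tag of dCas9-VP16(10x) gave a peak with every gRNA pool tested, away from annotated promoters and away from the sites that the gRNAs addressed. They were found in 3 steps from the 8149 HA peaks of cells that carried the IL1RN control gRNAs: 2881 of these peaks overlapped a peak in all 4 other HA dCas9-VP16(10x) lists, 2877 of those lay outside 5 kb of the 19 targeted loci, and 355 of those, 4.36% of the starting list, had no GENCODE transcription start within 1 kb. The IL1RN promoter is among the 19 loci, so the rule itself keeps regions away from it, and none lay within 5 kb of an IL1RN start. Because the regions were chosen by the HA peak calls themselves, HA values are given as a description and none of them was tested.

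The cells were Ishikawa, a human endometrial adenocarcinoma line, grown in hormone-depleted medium and transfected with plasmids for gRNAs and for nuclease-dead Cas9 fused to an activator, either 10 copies of the VP16 activation domain, dCas9-VP16(10x), or the acetyltransferase core of p300, dCas9-p300(core). The gRNAs came as Pool 1, Pool 2 and Pool 3, which address estrogen receptor binding sites (ERBS, all 3 pools together), as Adjacent gRNAs to sites beside them, and as IL1RN gRNAs to the promoter of that gene, the control. All groups carried a construct and a gRNA pool, and no cells without a construct were analysed here. ChIP-seq peak lists were at hand for 5 HA dCas9-VP16(10x) libraries (1 IL1RN, 2 ERBS, 2 Adjacent), 2 HA dCas9-p300(core) ERBS libraries, and, for H3K27ac and for RNA polymerase II (RNAPII), 2 libraries of each of 5 gRNA groups (Pool 1, Pool 2, Pool 3, Adjacent, IL1RN) with each construct, 20 libraries per antibody and 47 lists in all. The label of H3K27ac dCas9-VP16(10x) Adjacent replicate 1 also names IL1RN gRNAs, and the peak names of H3K27ac dCas9-VP16(10x) Pool 1 replicate 2 carry the letter that marks p300 in the other lists. Nothing in the labels says that replicates were separate cultures, so p-values measure only the spread between these libraries, which may be technical.

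Cas9 samples DNA by first touching the short PAM, for the common enzyme an NGG, and then pairing the adjacent seed of its gRNA, and most of these contacts are brief. Formaldehyde ChIP of the protein can therefore give signal where no gRNA matches, and open, GC-rich and transcribed chromatin is also known to give ChIP signal with unrelated antibodies. H3K27ac, acetylation of lysine 27 of histone H3, marks nucleosomes beside active promoters and enhancers and is written by p300 and its relative CBP, and RNAPII is found at promoters, in transcribed genes, past their 3′ ends and at active enhancers.

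Peak lists hold no read counts, so depth is unknown and was set aside in favour of the number of peaks per list. The 5 HA dCas9-VP16(10x) lists held 8149 (IL1RN), 6184 (ERBS replicate 1), 4785 (Adjacent replicate 1), 25109 (Adjacent replicate 2) and 30740 (ERBS replicate 2) peaks. H3K27ac lists ran from 5322 to 32052 peaks with dCas9-VP16(10x) and from 1805 to 24280 with dCas9-p300(core), and RNAPII lists from 16041 to 35592 and from 18809 to 40757. Peak names start with the number 15977, the number 15968 or neither, and every RNAPII list with dCas9-p300(core) carried 15977 whereas none with dCas9-VP16(10x) did, so for RNAPII the construct and this number cannot be told apart. The starts of the epithelial genes KRT8, KRT18 and PAX8 overlapped an H3K27ac and an RNAPII peak in 20 of 20 libraries each, EPCAM in 17 and 20 and CDH1 in 11 and 20, while those of the leukocyte genes PTPRC and CD3E and the fibroblast gene DCN did so in 0 and that of the fibroblast gene COL1A2 in 1 and 0.

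The sequence under the regions was rich in G and C. The 301 bases centred on the HA summit, the position of highest signal, had a median GC content of 66.1% (quartiles 62.8% and 68.6%, lowest 53.5%, highest 76.4%, 355 regions), against 52.8% in 710 windows of the same length 2 kb to either side. The other distal HA peaks, 735 peaks of the IL1RN list that met both distance limits but were missing from at least 1 other list, stood at 65.8%, and 2522 recurrent HA peaks at promoters at 67.4%. CpG dinucleotides numbered 16 per window at the median, against 6 in the flanking windows, 17 in the other distal peaks and 27 at promoters. The 12 PAM-adjacent bases of 71 designed gRNAs of the study, followed by NGG, were found in 0 of the 355 windows and in 12 of the 8149 windows of the IL1RN list (0.147%), whereas the IL1RN gRNA sequences were not used here.

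4 of the motifs searched on both strands illustrate what the windows held, and stretches with each are printed from the hg19 plus strand of the GRCh37 genome with every match in capitals. The stretches are those highest in HA among regions with a match within 100 bases of the summit (150 for the B box) and no coding exon in the stretch, each region shown once, so some regions with a higher HA fold are not shown. Regions outside coding genes are named here and in what follows by the nearest coding start, unless another gene is given. The GC box GGGCGG, bound by SP1 and KLF factors, lay in 247 of 355 windows (69.6%), against 18.7% of flanking windows, 58.6% of the other distal peaks, 83.2% of promoter peaks and 75.3% of the whole IL1RN list. The first stretch below is from the region highest in HA, in an intron of GRIN1 (chr9:140044906-140045105), and the second from an intron of TMEM217 (chr6:37190463-37190662).
GRIN1: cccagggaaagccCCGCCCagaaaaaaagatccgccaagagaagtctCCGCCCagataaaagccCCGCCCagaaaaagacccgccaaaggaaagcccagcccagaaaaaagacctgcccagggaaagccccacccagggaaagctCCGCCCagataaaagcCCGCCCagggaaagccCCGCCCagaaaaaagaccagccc
TMEM217: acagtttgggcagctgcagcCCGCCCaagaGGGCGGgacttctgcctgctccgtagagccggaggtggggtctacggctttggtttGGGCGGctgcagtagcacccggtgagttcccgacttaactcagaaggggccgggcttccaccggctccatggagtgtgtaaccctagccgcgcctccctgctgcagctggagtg

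The AP-1 letters TGANTCA, bound by dimers of JUN and FOS proteins, lay in 46 of 355 windows (13.0%), against 5.63% of flanking windows, 8.98% of the other distal peaks, 4.16% of promoter peaks and 4.82% of the whole IL1RN list. The stretches are from regions in an intron of ERCC1 (chr19:45959125-45959324, with 2 matches), nearest to RPL3 (chr22:39679605-39679804) and in an intron of GNG7 (chr19:2543671-2543870), with HA folds of 14.9, 14 and 13.3 in the IL1RN list.
ERCC1: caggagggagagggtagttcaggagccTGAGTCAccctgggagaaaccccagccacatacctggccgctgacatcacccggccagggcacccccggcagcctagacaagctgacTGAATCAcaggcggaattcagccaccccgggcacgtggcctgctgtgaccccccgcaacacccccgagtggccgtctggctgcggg
RPL3: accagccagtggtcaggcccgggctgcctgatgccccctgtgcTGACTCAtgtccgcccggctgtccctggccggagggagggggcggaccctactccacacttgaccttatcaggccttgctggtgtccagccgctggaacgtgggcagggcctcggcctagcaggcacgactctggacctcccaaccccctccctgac
GNG7: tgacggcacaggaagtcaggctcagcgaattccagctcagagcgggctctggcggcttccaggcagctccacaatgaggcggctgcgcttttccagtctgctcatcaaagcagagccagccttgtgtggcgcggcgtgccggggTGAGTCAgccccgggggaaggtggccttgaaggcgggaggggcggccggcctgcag

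The core letters of the CTCF motif, CCA, any 2 bases, AG, any 2 bases and GGC, lay in 41 of 355 windows (11.5%), against 1.41% of flanking windows, 13.3% of the other distal peaks, 4.04% of promoter peaks and 5.56% of the whole IL1RN list. CTCF is the factor that marks insulators and loop anchors. The stretches are from an intron of SLC6A9 (chr1:44471451-44471650), nearest to UNC5B (chr10:72968906-72969105) and nearest to CHST15 (chr10:125754238-125754437), with an H3K27ac peak in 0 libraries each and an RNAPII peak in 1, 2 and 6 of 20. The region with CTCF letters that was highest in HA, in an intron of CELSR2, is not printed and had an H3K27ac peak in 4 libraries and an RNAPII peak in 15.
SLC6A9: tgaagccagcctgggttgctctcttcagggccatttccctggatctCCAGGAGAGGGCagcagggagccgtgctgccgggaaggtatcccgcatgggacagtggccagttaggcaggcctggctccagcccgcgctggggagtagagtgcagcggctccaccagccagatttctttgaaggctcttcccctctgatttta
UNC5B: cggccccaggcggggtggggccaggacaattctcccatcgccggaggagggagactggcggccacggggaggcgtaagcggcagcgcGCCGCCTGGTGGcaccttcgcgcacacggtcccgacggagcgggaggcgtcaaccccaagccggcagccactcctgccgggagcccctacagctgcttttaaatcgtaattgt
CHST15: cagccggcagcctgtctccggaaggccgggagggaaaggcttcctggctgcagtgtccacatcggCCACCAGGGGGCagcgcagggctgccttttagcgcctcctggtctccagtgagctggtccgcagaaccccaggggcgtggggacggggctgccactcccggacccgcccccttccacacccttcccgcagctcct

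The B box GGTTCGA, any 2 bases and CC, the internal promoter element that tRNA genes share, lay in 4 of 355 windows (1.13%), against 0.282% of flanking windows, 0 of 735 other distal peaks, 0.476% of promoter peaks and 0.344% of the whole IL1RN list. The annotation used for transcription starts lists 0 tRNA genes outside the mitochondrial genome, so a tRNA start would not have removed a region. The stretches shown are from regions nearest to PER1 (chr17:8042203-8042502), in an intron of PQBP1 (chrX:48749158-48749457) and nearest to NUFIP1 (chr13:45492047-45492346), with an RNAPII peak in 17, 19 and 18 of 20 libraries and an H3K27ac peak in 10, 2 and 8.
PER1: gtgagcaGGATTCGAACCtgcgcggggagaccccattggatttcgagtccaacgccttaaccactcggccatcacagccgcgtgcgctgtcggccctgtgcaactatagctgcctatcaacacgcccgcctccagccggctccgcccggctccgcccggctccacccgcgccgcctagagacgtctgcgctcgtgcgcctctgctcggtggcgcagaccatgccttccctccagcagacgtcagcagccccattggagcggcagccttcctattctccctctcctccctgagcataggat
PQBP1: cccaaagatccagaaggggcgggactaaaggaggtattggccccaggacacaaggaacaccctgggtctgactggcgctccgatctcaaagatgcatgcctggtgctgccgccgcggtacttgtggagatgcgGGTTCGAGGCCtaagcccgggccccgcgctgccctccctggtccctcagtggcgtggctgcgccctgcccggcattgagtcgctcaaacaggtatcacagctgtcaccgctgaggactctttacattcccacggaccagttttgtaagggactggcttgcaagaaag
NUFIP1: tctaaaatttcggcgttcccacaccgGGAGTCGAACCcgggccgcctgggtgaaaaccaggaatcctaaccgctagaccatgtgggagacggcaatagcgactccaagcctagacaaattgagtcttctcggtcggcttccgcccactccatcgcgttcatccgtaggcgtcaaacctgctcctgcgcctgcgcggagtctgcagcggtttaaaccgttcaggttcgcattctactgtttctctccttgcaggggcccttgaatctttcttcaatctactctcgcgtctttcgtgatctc

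Other letters were spread differently. The E-box CAGCTG lay in 97 of 355 windows (27.3%; flanks 15.2%, other distal 30.6%, promoters 17.7%) and the TEAD letters GGAATG in 72 (20.3%; flanks 16.3%, other distal 15.6%, promoters 11.1%). The ETS letters CCGGAAG lay in 7.89% of the windows and 18.2% of promoter peaks. The full palindrome of the estrogen response element, GGTCA and TGACC set 3 bases apart, was in 0 of 355 windows and in 2 of the 8149 windows of the IL1RN list (0.0245%). A match is a run of letters and not a measured binding site, and the AP-1, CTCF, E-box and TEAD shares at the regions were closer to those of the other distal peaks than to those of promoters.

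By the position of the HA summit, most of the regions lay in or between genes and not in exons. Introns of coding genes held 157 (44.2%), and 149 (42.0%) lay in neither a coding nor a lncRNA gene. A further 28 (7.89%) had their summit in an exon of a coding gene, and 21 (5.92%) lay only in a lncRNA gene. Chromosome 19, the most gene-dense human chromosome, held 60 (16.9%), chromosome 1 held 39 (11.0%) and chromosome 17 held 32 (9.01%), and chromosome 19 held 12.4% of the other distal peaks and 10.1% of the promoter peaks. The median distance to the nearest start was 4934 bp (lowest 1002, highest 85691), with 76 regions (21.4%) within 2 kb and 98 (27.6%) beyond 10 kb. A position within 3 kb past the 3′ end of a coding gene was found for 26 (7.32%; other distal 6.39%). Peak widths had a median of 350 bp, against 257 bp for the other distal peaks and 421 bp for the promoter peaks, and 32 regions (9.01%) lay within 5 kb of another.

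The regions nearest to the 1 kb limit show where the rule drew its line. Just inside it were a region in an intron of DAB2IP (1002 bp from a start), one in an intron of AGRN (1005 bp) and one beside JUNB (1018 bp), with HA folds of 9.66, 11.1 and 13.1 in the IL1RN list. Just outside were recurrent peaks near KCTD2 (992 bp), SNAP47 (988 bp) and COL26A1 (967 bp), with folds of 5.48, 8.57 and 8.53.

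HA enrichment, the fold of ChIP signal over control that the peak caller gives at the summit, was of similar size in the IL1RN list and both replicates 1 and larger in both replicates 2. In the IL1RN list it ran from 5.1 to 24.8 with a median of 10.0, against 8.8 for all peaks of that list. In ERBS replicate 1 and Adjacent replicate 1 the medians were 8.47 (3.47 to 27.3) and 8.1 (4.09 to 26.2), and in Adjacent replicate 2 and ERBS replicate 2 they were 20.7 (5.66 to 84.3) and 24.0 (5.8 to 100). Of the 355 regions, 352 had their highest value in either Adjacent replicate 2 or ERBS replicate 2, the longest lists. This does not place both of these lists above the other 3 at each region. At the HCN2 region described below, for example, ERBS replicate 2 gave the lowest value. The order of the regions was only partly shared: Spearman's rho between lists ran from 0.1 to 0.48 over the 10 pairs (n = 355 regions, which share libraries), lowest between the IL1RN list and ERBS replicate 2. Summits of the same region in 2 lists lay a median of 35 to 52 bp apart. In ERBS replicate 1, Adjacent replicate 1, Adjacent replicate 2 and ERBS replicate 2, 4, 6, 14 and 12 regions shared their overlapping peak with a neighbouring region.

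**Figure D1:**
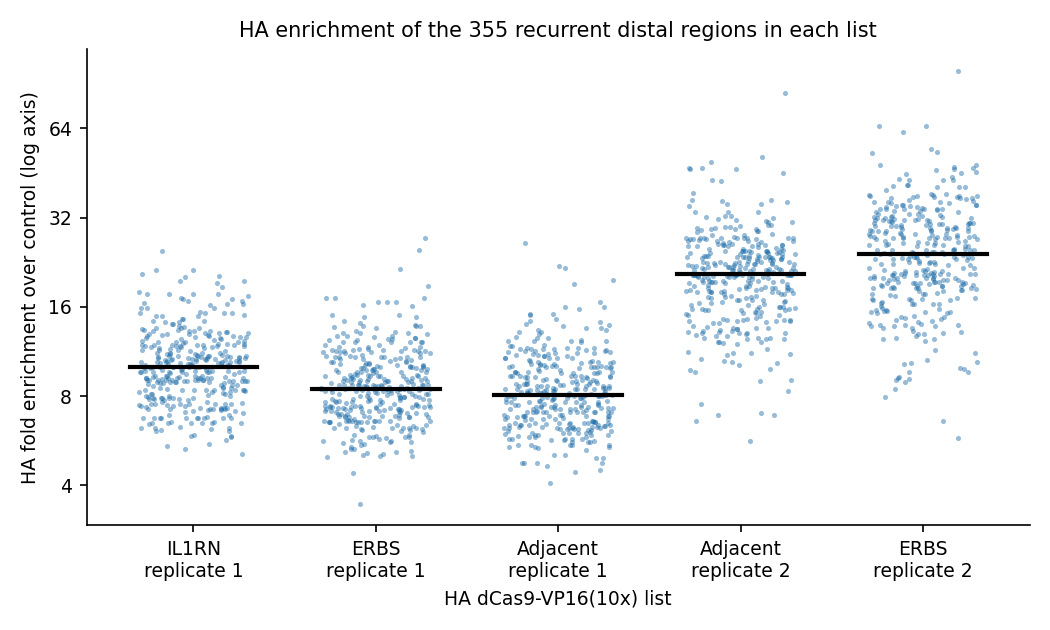
HA fold enrichment over control (vertical log axis) of the 355 regions in each of the 5 HA dCas9-VP16(10x) lists. The medians were 10.0 in the IL1RN list, 8.47 and 8.1 in the replicates 1 and 20.7 and 24.0 in the replicates 2.

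The region with the highest HA enrichment in the IL1RN list had no RNAPII peak and no H3K27ac peak in any library. It lay in an intron of GRIN1, the obligatory subunit of NMDA receptors (chr9:140044686-140045955), 1225 bp from a start, and read 24.8 in the IL1RN list, 21.5 and 20.5 in ERBS replicates 1 and 2, and 14.3 and 12.9 in Adjacent replicates 1 and 2. Its 1270 bp held 38 GC boxes, or 29.9 per kb, the most of any region against a median of 3.84. The stretch printed for GRIN1 holds 6 of them in similar runs of letters that recur. Whether such repeats affect the peak calls here was not tested. It was among the few regions whose value was not highest in a replicate 2.

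The next regions in this order lay in introns of genes with varied roles. A region in CELSR2, an adhesion receptor of the cadherin superfamily (chr1:109806220-109806592), read 21.3 in the IL1RN list, 18.9 and 37.8 in ERBS and 13.8 and 35.5 in Adjacent, and had an RNAPII peak in 15 libraries and an H3K27ac peak in 4. A region in TMEM217 (chr6:37189918-37190725) read 21.3, then 15 and 41.4, and 12.6 and 31.0 in the same order. A region in LMTK3, a membrane kinase (chr19:48996039-48996622), read 20.7, then 13.8 and 28.4, and 15.1 and 30.1. All 3 were higher in the replicates 2 than in the other lists. The remaining 6 of the top 10 lay in TMC8, GNG7 (2 regions) and SLC6A9, and upstream of TRERF1 and CCND1, with HA folds of 18.7 to 20.4 in the IL1RN list. CCND1 encodes cyclin D1, which drives the entry into S phase, and the region 1680 bp from its start (chr11:69453628-69454244) read 19.2 in the IL1RN list, 6.99 and 19.2 in ERBS and 7.81 and 19.4 in Adjacent.

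With dCas9-p300(core) almost none of the regions gave an HA peak. The 2 HA dCas9-p300(core) lists held 154 and 141 peaks, of which 0 and 4 overlapped one of the 355 regions, and no region overlapped a peak in both. The 4, named here after their values were seen, lay in SH3GL1 (12.7), 3949 bp from MIR200B (12.1), in AGRN (9.58) and in NOTCH1 (8.71), each with its fold in ERBS replicate 2. All 4 had an H3K27ac peak in 20 of 20 libraries. The short lists limit what can be said, since a region outside a list is not shown to lack HA signal. How many of the other HA peaks of the IL1RN list overlapped these 2 lists was not counted.

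RNAPII was found at most of the regions and H3K27ac at about as many as not. An RNAPII peak was present in at least 10 of 20 libraries at 274 of 355 regions (77.2%), against 89.9% of all peaks of the HA IL1RN list, 95.6% of promoter peaks and 63.1% of the other distal peaks. An H3K27ac peak was present in at least 10 of 20 at 169 (47.6%), against 65.0% of all peaks of the list, 74.0% of promoter peaks and 34.1% of the other distal peaks. RNAPII reached all 20 libraries at 107 regions (30.1%; 61.6% of the list) and H3K27ac at 16 (4.51%; 2.12% of the list). No RNAPII peak in any library was found at 12 regions (0.859% of the list) and no H3K27ac peak at 38 (3.25% of the list). The regions thus fell below the whole list at the 10-library mark for both antibodies, and the median region had a peak in 17 RNAPII and 9 H3K27ac libraries.

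Sorted by the 10-library mark, 163 regions (45.9%; 64.2% of the list) had both, 111 (31.3%) RNAPII only, 6 (1.69%) H3K27ac only and 75 (21.1%; 9.42% of the list) neither. RNAPII only held 31.3% of the other distal peaks and 21.6% of promoter peaks, and H3K27ac only 2.31% and 0.119%. These names refer to the mark alone. Of the 111, 4 had no H3K27ac peak in any library, and all 6 had an RNAPII peak in at least 1. The numbers of RNAPII and H3K27ac libraries varied together, with a Spearman's rho of 0.66 over 355 regions, and each also varied with HA peak width (rho 0.34 for H3K27ac and 0.31 for RNAPII). Median HA enrichment in the IL1RN list was 10.0 with both, 10.2 with RNAPII only, 10.4 with H3K27ac only and 9.66 with neither, so the groups overlapped almost fully. Regions with neither were narrower (287 bp against 409 bp with both) and farther from a start (6773 bp against 5032 bp). CTCF letters lay in 17 of the 75 with neither (22.7%), in 13 of the 111 with RNAPII only (11.7%) and in 11 of the 163 with both (6.75%). TEAD letters ran the other way, at 12%, 16.2% and 26.4%. AP-1 letters changed less, at 10.7%, 12.6% and 14.7%.

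**Figure D2:**
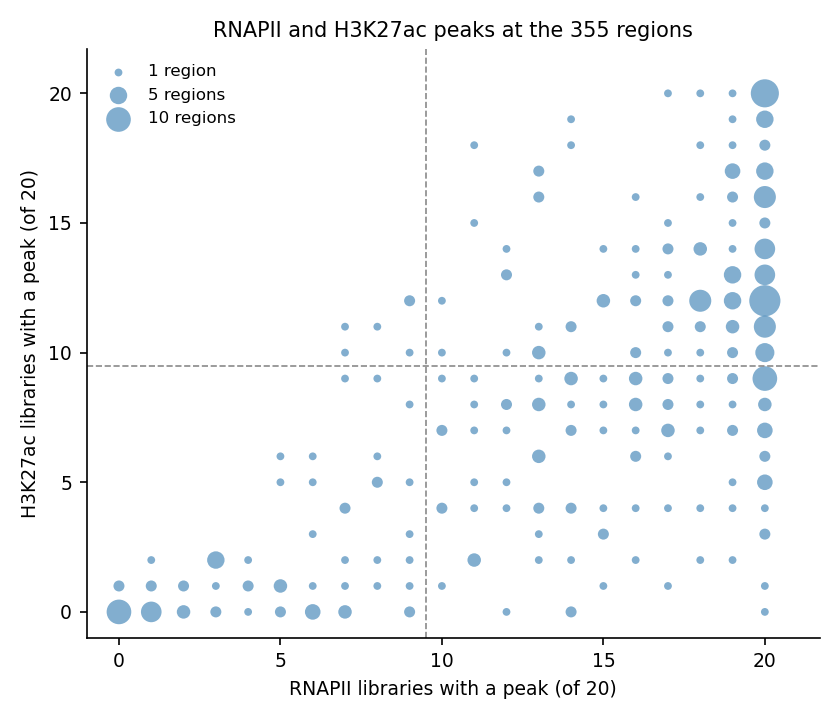
Number of RNAPII libraries with a peak (horizontal axis, of 20) and number of H3K27ac libraries with a peak (vertical axis, of 20) at the 355 regions, with the area of a point for the number of regions and dashed lines at the 10-library mark. Points crowd at the right edge, where 107 regions had RNAPII in all 20 libraries, while 16 reached 20 for H3K27ac.

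The 13 regions with both marks in all 20 libraries, listed after their values were seen, lay in or had as nearest coding start AGRN, PTPRF, PWWP2B, SLC22A18, FRMD8, KRT80 (2 regions that share their peaks), MKNK2, SERTAD1, LAMA5, AMOTL2 and ABHD11, and 1 lay 3949 bp from MIR200B. How many of the other HA peaks had both in all 20 libraries was not counted. FRMD8 was 24897 bp away and KRT80 36756 and 37942 bp. The nearest starts of any kind there were those of the non-coding genes ENSG00000290057 and LINC00592. MIR200B encodes a microRNA that keeps the epithelial state, LAMA5 a laminin chain of basement membranes and AMOTL2 a junctional regulator of YAP. The highest mean H3K27ac folds among regions with a peak in every library were 50.4 near MKNK2, a kinase of the translation initiation machinery (chr19:2059670-2060118), 44.9 in an intron of the receptor gene NOTCH1 (chr9:139420437-139421527) and 43.9 in an intron of SH3GL1, an endophilin (chr19:4375034-4375257). Their HA folds in the IL1RN list were 7.91, 10.6 and 7.86, near or below the median of 10.0. The highest mean RNAPII folds were 32.9 past the 3′ end of ID1, an inhibitor of basic helix-loop-helix factors (chr20:30196296-30196579), 32.7 in an intron of the cytokine gene TGFB1 (chr19:41833479-41833947) and 31.8 in an exon of the kinesin gene KIFC2 (chr8:145697654-145698117). Their HA folds in the IL1RN list were 11.4, 15.2 and 9.19.

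At the other end, 10 regions had no peak of either antibody in any of the 40 libraries, and 8 of them lay in introns. How many peaks of the whole IL1RN list lacked both was not counted. It cannot exceed the 0.859% of them without RNAPII in any library. The highest in HA was the GRIN1 region, followed by a region in an intron of SLC38A8, an amino acid transporter (chr16:84047452-84048264), which read 16.7 in the IL1RN list, 11.2 and 62.3 in ERBS and 13.6 and 22.9 in Adjacent. A region in HCN2, a pacemaker channel (chr19:604301-604775), read 14, then 9.84 and 6.57 in ERBS, with 19.7 in Adjacent replicate 1 and its highest value in Adjacent replicate 2. Others, named after their values were seen, lay in CELF5, RYR1, CAMTA1 and CDH15, near PALM and near the uncharacterised gene ENSG00000286183, with HA folds of 6.5 to 10.4 in the IL1RN list. RYR1 is the calcium release channel of skeletal muscle and CDH15 a muscle cadherin, while GRIN1, HCN2 and CELF5 are known mainly from neurons. What these genes do in Ishikawa cells was not measured here.

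The next question was how often a library called a peak at the regions compared with the 2 nearest sets. Over 20 libraries, an H3K27ac peak was present at 44.3% ± 25.5 (SD, n = 20) of the 355 regions, from 7.04% to 87.9% with a median of 53.2%. At the other distal peaks the share was 36.4% ± 24.8, so the regions stood 7.91 percentage points higher, in 20 of 20 libraries (two-sided permutation test of paired signs, p = 1e-05, the smallest that 100000 resamples can give, adjusted over 6 comparisons p = 2e-05). At promoter peaks it was 58.6% ± 33.5, so the regions stood lower by 14.3 points, in 17 of 20 libraries (same permutation test, p = 2e-05, adjusted p = 3e-05). The libraries that went the other way were dCas9-p300(core) IL1RN, Pool 2 and Pool 3, each replicate 2. Their shares were 16.1%, 10.4% and 7.04% at the regions and 15.7%, 8.09% and 6.19% at promoter peaks. Their lists were the shortest for H3K27ac, with 4088, 3020 and 1805 peaks. The ranges of the 3 sets overlapped widely across libraries, so the comparison rests on the order within each library.

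An RNAPII peak was present at 71.8% ± 15 (SD, n = 20) of the regions, from 45.1% to 93.8% with a median of 76.3%. The share at the other distal peaks was 60.6% ± 19, 11.2 points lower, in 19 of 20 libraries, and that at promoter peaks 93.3% ± 5.01, 21.5 points higher, in 20 of 20 (same permutation test for both, p = 1e-05, adjusted p = 2e-05). The sets differ in width, and a wide region meets a peak more easily. Counting only overlap of the single HA summit base, the H3K27ac gap to the other distal peaks shrank to 1.93 points and that to promoter peaks to -7.34 points, while the RNAPII gaps were 9.57 and -20.8 points. Whether the gaps themselves differed between constructs was tested in 4 comparisons, and the unadjusted permutation p ran from 0.0223 (H3K27ac, other distal peaks, 9.58 and 6.24 points for the VP16 and p300 constructs) to 0.722, which does not pass a Benjamini-Hochberg correction over the 4.

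**Figure D3:**
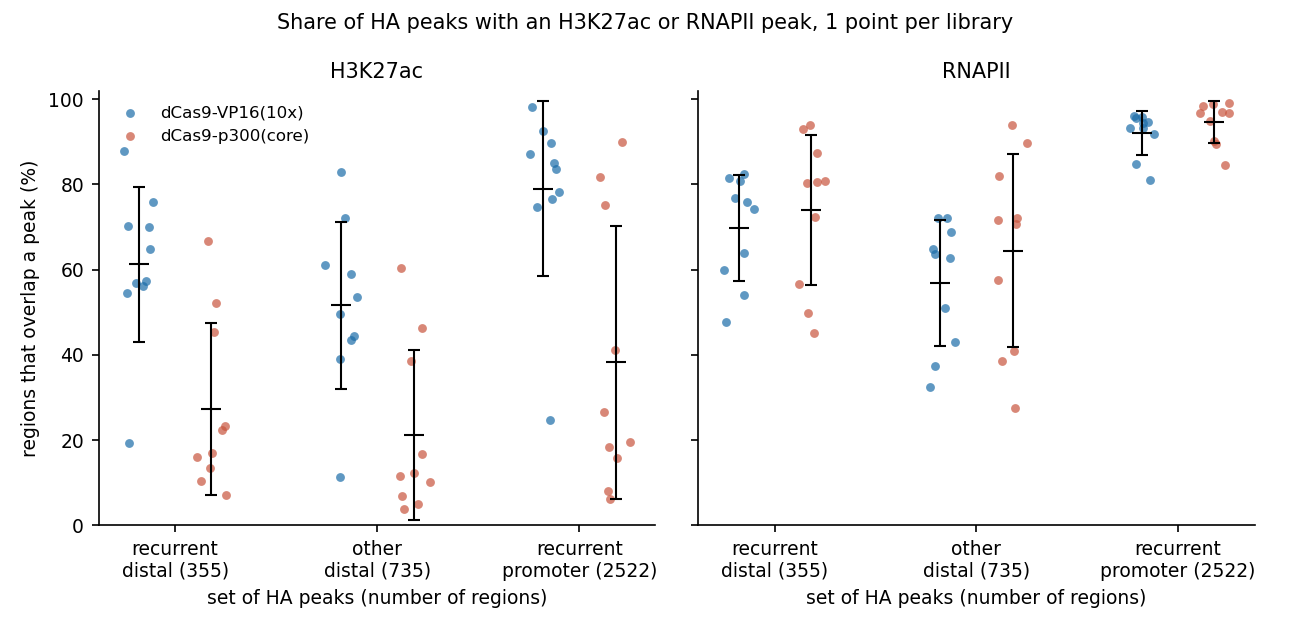
Share of HA peaks that overlap an H3K27ac (left) or RNAPII (right) peak, in percent, with 1 point per library and the construct by colour, for the 355 regions, the 735 other distal peaks and the 2522 promoter peaks, with bars for the mean and SD of 10 libraries. The regions lie between the other 2 sets on average, at 44.3% for H3K27ac and 71.8% for RNAPII.

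How often a mark was called varied little with HA enrichment, while RNAPII fold was weakly higher at regions with more HA. Across the 355 regions, Spearman's rho between HA fold in the IL1RN list and the number of libraries with a peak was 0.06 for RNAPII and -0.03 for H3K27ac. With HA taken from each of the 5 lists it ran from -0.13 to 0.15 for RNAPII and from -0.19 to 0.11 for H3K27ac, so its sign depended on the list. Among regions with a peak in all 20 libraries, the rho with the median fold was 0.21 for RNAPII (n = 107) and 0.07 for H3K27ac (n = 16) with HA from the IL1RN list. For RNAPII it was positive with each of the 5 HA lists, from 0.19 to 0.32 over these 107 regions and from 0.1 to 0.3 over the 274 with a peak in at least 10 libraries, highest both times with Adjacent replicate 2. The points share libraries and GC-rich sequence, and the values are given as a description.

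The regions were also divided into 3 by HA fold. An RNAPII peak in at least 10 libraries was found at 74.6% of the 118 lowest (5.1 to 8.91), 76.3% of the 118 middle and 80.7% of the 119 highest regions (11.0 to 24.8). For H3K27ac the shares were 44.1%, 56.8% and 42.0%, highest in the middle. The median RNAPII fold where a peak was called was 9.06, 10.8 and 11.4, and the median H3K27ac fold 16.8, 16.3 and 17.1.

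**Figure D4:**
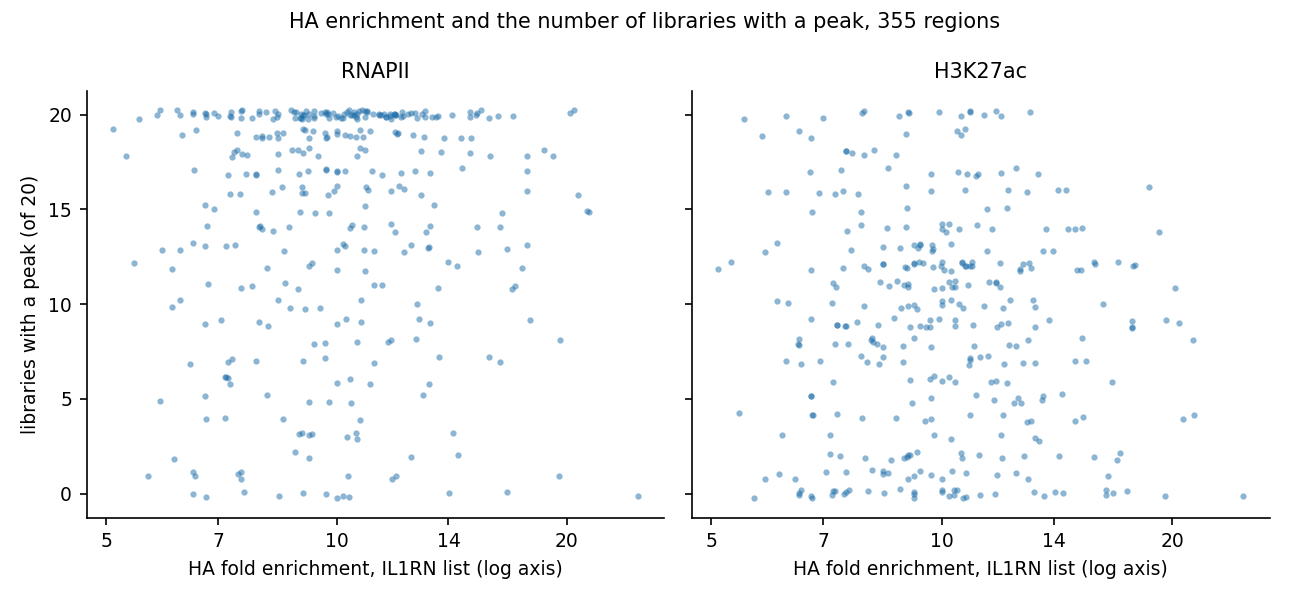
HA fold enrichment in the IL1RN list (horizontal log axis) against the number of libraries with a peak (vertical axis, of 20), for RNAPII (left) and H3K27ac (right), 1 point per region. Spearman's rho over the 355 regions was 0.06 for RNAPII and -0.03 for H3K27ac.

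The marks sat at different distances from the HA summit. In the 2 RNAPII dCas9-VP16(10x) libraries with the same IL1RN gRNAs, the RNAPII summit lay a median of 73 and 68 bp from it, with 62.8% of 293 and 65.6% of 273 regions within 100 bp. In the 2 matching H3K27ac libraries, the distance was 270 and 262 bp, with 22.6% of 199 and 7.88% of 203 regions within 100 bp and 54.8% and 57.6% beyond 250 bp. The H3K27ac lists held wider peaks (median widths 730 and 463 bp, against 352 and 333 bp for RNAPII), and the share of the difference that this accounts for was not tested.

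Between constructs, more of the regions carried an H3K27ac peak with dCas9-VP16(10x) than with dCas9-p300(core). The share was 61.2% ± 18.2 (SD, n = 10) with dCas9-VP16(10x), from 19.2% to 87.9% with a median of 61.0%, and 27.4% ± 20.2 (n = 10) with dCas9-p300(core), from 7.04% to 66.8% with a median of 19.6%. The difference was 33.8 points (two-sided permutation test with 100000 resamples, p = 0.00143, adjusted p = 0.00172), although the ranges overlapped. By region, 283 had H3K27ac in more dCas9-VP16(10x) than dCas9-p300(core) libraries, 4 in fewer and 68 in equal numbers. The regions share libraries, so this is no count of replicates, and the split was not counted for the other HA peaks. The median number of dCas9-VP16(10x) and dCas9-p300(core) libraries was 8 and 2 at the regions. It was 9 and 3 at promoter peaks and 5 and 1 at the other distal peaks. H3K27ac was in all 10 dCas9-VP16(10x) libraries at 63 regions and in all 10 dCas9-p300(core) libraries at 17. The same counts were 595 and 78 of 2522 promoter peaks, and 79 and 14 of 735 other distal peaks. The same direction was seen at the other distal peaks (mean shares 51.6% and 21.1%, 30.5 points apart) and at promoter peaks (79.0% and 38.2%, 40.8 points apart).

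The number of peaks in a list moved with this difference, with a median of 25025 H3K27ac peaks in the dCas9-VP16(10x) lists against 6143 in those of dCas9-p300(core). With every list shortened to the same number of its strongest peaks, the difference was 8.28 points (permutation test, p = 0.00094). Among lists with the peak-name number 15977 the mean share was 57.5% (5 libraries, 19.2% to 87.9%) with dCas9-VP16(10x) and 37.2% (6 libraries, 13.5% to 66.8%) with dCas9-p300(core). Among lists without a number it was 64.9% (5 libraries, 56.9% to 75.8%) and 12.6% (4 libraries, 7.04% to 16.9%), which did not overlap. These lists also differed most in length, with 24890 to 32052 peaks against 1805 to 4346, so the 2 cannot be told apart there. For RNAPII the shares were 69.7% ± 12.4 (SD, n = 10; 47.6% to 82.5%) and 74.0% ± 17.6 (n = 10; 45.1% to 93.8%), a difference of -4.25 points that was within the spread of the libraries (permutation test, p = 0.538).

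Fold enrichment at single regions was compared only where a peak was called in all 20 libraries of an antibody, on the log2 scale after subtracting each library's median over all such peaks of the IL1RN list, with limma and Benjamini-Hochberg adjustment over all of them. A value is therefore relative to the other HA peaks of its library. For H3K27ac, 16 of the 355 regions entered among 173 peaks and 0 had an adjusted p of at most 0.05, as did 0 of the 173 (0%). At an unadjusted p under 0.05 there were 2 regions, both higher with dCas9-VP16(10x), in introns of SLC22A18 (log2 difference 0.51 ± 0.14 SE, limma adjusted p = 0.0836) and NOTCH1 (0.49 ± 0.14, limma adjusted p = 0.0836). How many of the 173 peaks had such a p was not counted.

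For RNAPII, 107 of the 355 regions entered among 5018 peaks, and 40 differed between constructs, 33 higher and 7 lower with dCas9-VP16(10x). Of all peaks tested, 23.9% differed, 14.4% higher and 9.41% lower. The median log2 difference was 0.18 over the 107 regions (lowest -1.41, highest 0.88) and 0.01 over the 5018 peaks. The split depends on the centring: without it the library medians, 8.71 to 18.6 with dCas9-VP16(10x) against 11.8 to 34.9 for dCas9-p300(core), shift the median of all peaks by -0.72 on the log2 scale, and 0 of the 107 regions were then higher and 63 lower, against 80.9% of all peaks called, 4 higher and 4055 lower. With the IL1RN libraries alone, 2 per construct, limma called 0 regions, and 19 had an unadjusted p under 0.05. How many of all peaks tested had such a p was not counted, so the 19 cannot be set against them.

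The region with the smallest adjusted p lay past the 3′ end of JUND, an AP-1 subunit encoded by a short intronless gene (chr19:18390280-18390634, 1105 bp from a start). Its RNAPII fold ran from 5.39 to 29.7 with a median of 8.94 with dCas9-VP16(10x), and from 10.9 to 83.1 with a median of 53.1 with dCas9-p300(core). Relative to the library medians it was lower with dCas9-VP16(10x) by -1.41 ± 0.2 SE (log2, limma adjusted p = 0.000123), and the values overlapped through IL1RN replicate 1, which stood at 0.95 against -0.91 to -0.19 in the other 9. Within the IL1RN libraries alone the difference was -0.42. An HA fold of 10.2 in the IL1RN list placed this region at the middle of the 355.

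Other regions with lower relative RNAPII with dCas9-VP16(10x) were in SPATA2L (chr16:89766503-89766919, log2 difference -0.51 ± 0.12 SE, limma adjusted p = 0.00555) and nearest to the coding starts of DYNC1H1, the dynein heavy chain (chr14:102529892-102530181, -0.74 ± 0.18, limma adjusted p = 0.00556), PLEKHG4B (chr5:53947-54292, -0.61 ± 0.17, limma adjusted p = 0.0106) and NFATC1, a calcineurin-dependent transcription factor (chr18:77153904-77154338, -0.34 ± 0.1, limma adjusted p = 0.0196). The DYNC1H1 region ran from 6.43 to 14.4 (median 8.91) with dCas9-VP16(10x) and from 7.66 to 50.1 (median 34.0) with dCas9-p300(core), so the groups overlapped. The DYNC1H1 and NFATC1 differences changed sign in the IL1RN libraries alone, to 0.09 and 0.06.

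Higher relative RNAPII with dCas9-VP16(10x) was found most clearly in a lncRNA gene whose nearest coding start is GLDC, glycine decarboxylase (chr9:6681268-6681878), where the log2 difference was 0.63 ± 0.1 SE (limma adjusted p = 0.000215) with centring and -0.1 without it. The folds as deposited ran from 10.1 to 28.7 (median 17.4) with dCas9-VP16(10x) and from 10.5 to 25.2 (median 19.7) with dCas9-p300(core) and overlapped, whereas the centred values did not, which held for 1 of the 107 regions and 0.578% of all peaks tested. Regions upstream of LRFN3 (chr19:36422342-36422722, 0.54 ± 0.1, limma adjusted p = 0.000629), in NEK7, a mitotic kinase (chr1:198128177-198128439, 0.72 ± 0.14, limma adjusted p = 0.00111), near SP1, itself a GC-box factor (chr12:53764825-53765450, 0.61 ± 0.12, limma adjusted p = 0.00181), and in PTPRF, a receptor phosphatase (chr1:44015772-44016201, 0.53 ± 0.11, limma adjusted p = 0.00189), were also higher with centring and were at -0.19, -0.01, -0.12 and -0.2 without it. The LRFN3 region had no H3K27ac peak in any library.

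**Figure D5:**
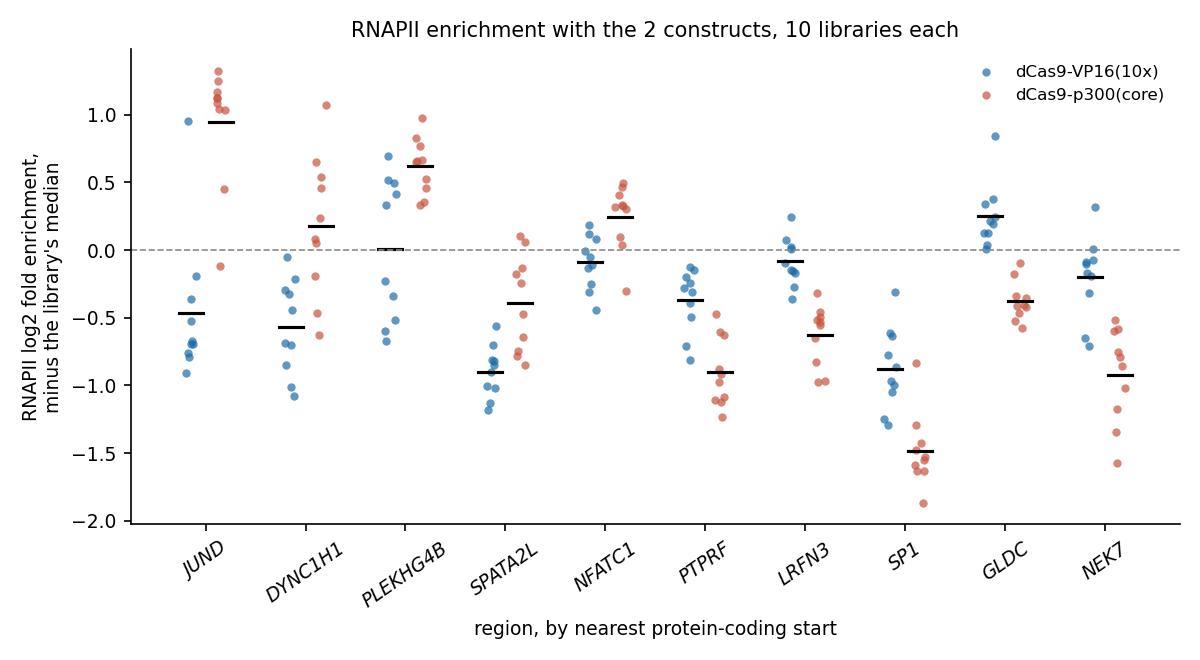
RNAPII log2 fold enrichment minus the library's median (vertical axis) at the regions with the smallest adjusted p, with 1 point per library, 10 libraries per construct and bars at the means. The widest gap between means is at the JUND region, where 1 dCas9-VP16(10x) library stands at 0.95, and the 2 constructs do not overlap at the GLDC region.

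Gene lists that relate to the cell type or the study's gRNAs were looked up among the nearest genes. The lists are short and no count over all HA peaks was made, so the numbers only name regions. Of 12 AP-1 and immediate early genes, 3 were the nearest coding gene of a region: JUND, JUNB and IER2. The region beside JUNB, in an intron of HOOK2, had relative RNAPII values that did not pass the test (log2 difference -0.18 ± 0.15 SE, limma adjusted p = 0.39), and that nearest to IER2 was higher with dCas9-VP16(10x) (0.55 ± 0.15 with centring, limma adjusted p = 0.0102), although no region was higher without centring. Of 9 simple epithelial keratin and junction genes, 1 was nearest to a region, which overlapped the exon of the tight junction gene CLDN4 (chr7:73246590-73246801) with the lowest HA fold of all 355 in the IL1RN list, 5.1. No region was nearest to any of 10 estrogen-responsive genes, 9 endometrial lineage genes or 2 abundant nuclear RNAs. The estrogen-responsive list includes CISH, MMP17, FHL2 and HES2, and the rule left out 5 kb around their targeted sites.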

How the data were processed

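The authors deposited 1 narrowPeak list per library. The submitters' processing notes name Bowtie 1.1.2, SAMtools, bedtools, MACS2 2.1.0.20140616 and hg19. Column 7 of the deposited lists is the fold enrichment over control at the peak summit, a ratio, and column 8 the −log10 p, and both were used as deposited by the authors. No normalization between lists is stated, no read counts were at hand, and the precision is limited by the number of libraries. A deposited table of normalized reads at 23 regions, none of them among those described, was used only for the positions of the 19 targeted loci.

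Overlap meant at least 1 bp, and transcription starts came from GENCODE 44 lifted to GRCh37. A region's fold in a library was that of the strongest overlapping peak. Shares of regions were compared over libraries by two-sided permutation tests (100000 resamples, own code with NumPy 2.4.6), 6 differences adjusted together by Benjamini-Hochberg. Centred log2 folds, with no pseudocount because every value was above 0, were fitted with limma 3.58.1 in R 4.3.3 over all HA IL1RN peaks with a peak in all 20 libraries, after the script was tested on simulated data. Python 3.11.15, pandas 2.3.3, SciPy 1.17.1, pysam 0.24.0 and matplotlib 3.10.9 were also used. Motifs were searched within 150 bases of the summit, and gRNA seeds for 71 gRNAs, leaving out 1 without a full PAM.

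Named were the 10 regions highest in HA, those in both HA dCas9-p300(core) lists (none), the 3 highest in mean RNAPII and in mean H3K27ac, the 3 highest in HA without either mark, up to 5 per direction and antibody with the smallest adjusted p (H3K27ac gave none), those nearest to the 1 kb limit, and those of the gene lists. 1 region without either mark is not reported here by name. The regions, lists and motifs were chosen with earlier results of these data known. Alternatives were other distances and peak thresholds, overlap with the summit base, equal numbers of peaks, other scalings, blocks and leaving out each library.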

Additional observations from a re-analysis of the deposited data

Results flagged for a closer look

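In groups of 10 libraries of 1 construct and antibody, 13 of 100 groups checked held a library whose gap to the nearest other was larger than Dixon's 95% critical value allows, and chance alone flags about 1 in 20. No explanation was tested for any of them.

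H3K27ac dCas9-VP16(10x) Pool 3 replicate 1 had the lowest share of regions with a peak of its group, 19.2% against 54.4% to 87.9% in the other 9, and also the lowest share of recurrent promoter peaks, 24.6% against 74.7% to 98.2%.

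Centred log2 H3K27ac folds stood apart in dCas9-VP16(10x) Adjacent replicate 1 at the region near MIR200B (-0.64, the others 0.0 to 0.73) and in dCas9-VP16(10x) Adjacent replicate 2 at both regions near KRT80, which share a peak (-0.75, the others 0.08 to 0.75). They also stood apart in dCas9-VP16(10x) IL1RN replicate 1 at the regions in SLC22A18 (-0.58, the others 0.05 to 0.65) and LAMA5 (-1.78, the others -0.41 to 0.66).

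Centred log2 RNAPII folds stood apart with dCas9-VP16(10x) at the regions near TRERF1 (Pool 3 replicate 1, -0.04, the others 0.46 to 0.88), KIFC2 (Pool 3 replicate 2, 1.13, the others 0.6 to 0.85), GLDC (Pool 1 replicate 2, 0.85, the others 0.01 to 0.38), JUND (IL1RN replicate 1, 0.95, the others -0.91 to -0.19) and IER2 (Pool 2 replicate 2, -1.09, the others -0.65 to -0.18). With dCas9-p300(core) the region near MIR200B stood apart in IL1RN replicate 2 (-0.29, the others -0.01 to 0.22).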

How the results depend on the processing

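All 146 alternatives for the 6 share comparisons kept the direction and the side of the threshold. Leaving out 1 library at a time gave 30.9 to 38.5 points for H3K27ac between constructs, -7.46 to -1.8 for RNAPII between constructs, -15.2 to -13.5 (H3K27ac) and -22.3 to -20.5 (RNAPII) against promoter peaks, and 7.52 to 8.15 and 10.8 to 11.8 against the other distal peaks.

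The number of regions, 355, was 176 with no start within 5 kb and 151 with a −log10 p of at least 20 in every HA list, and 355 to 565 without 1 of the 4 other HA lists, highest without Adjacent replicate 1. The rho of HA with H3K27ac library number, -0.03, was -0.17 with ERBS replicate 1, -0.19 with Adjacent replicate 1 and 0.11 with ERBS replicate 2, and that with RNAPII, 0.06, was -0.13, -0.11 and, over median folds of regions in all 20 libraries, 0.21. The cause was not tested.

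Of the H3K27ac calls, 0 with centring, there were 13 of 16 without centring, all higher with dCas9-VP16(10x), as were 74.6% of the 173 peaks tested, and 2 with quantile normalization (2.89% of peaks), and 0 to 1 without 1 library (1 without dCas9-VP16(10x) IL1RN replicate 1 or Pool 3 replicate 1). The 40 RNAPII calls among 107 regions were 63 without centring (80.9% of peaks), 71 among 187 regions tested when a peak in 8 of 10 libraries of each construct was enough (24.8% of peaks), 0 with the IL1RN libraries only, where 8 of 10 groups of libraries are left out, and 33 to 46 without 1 library. Without centring the signs reversed near GLDC (-0.1), LRFN3 (-0.19), NEK7 (-0.01), SP1 (-0.12) and PTPRF (-0.2), and with the IL1RN libraries only near DYNC1H1 (0.09) and NFATC1 (0.06).

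Replicate numbers did not consistently pair the libraries. Over 45 pairs of groups, deviations of same-numbered libraries correlated at -0.53 to 0.86 (median 0.19) for H3K27ac and -0.36 to 0.67 (median 0.03) for RNAPII. More of the H3K27ac pairs were thus positive than negative. Outside the Adjacent groups, same-numbered H3K27ac libraries also shared the start of their peak names, 15977 or no number. Replicate number and peak-name number cannot be told apart there. With the replicate block the H3K27ac share difference was 33.8 points, the RNAPII difference -4.25 points, and 0 H3K27ac and 42 RNAPII regions were called. Depth cannot be judged from peak lists, so a missing peak does not show a missing signal.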
